A study of Drosophila melanogaster with 3 samples.

Results

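Chromosome 4 carried 240 of the 30000 peaks (0.8%) that were called for the GFP-tagged protein CG15601 on 3 pooled embryo ChIP-seq replicates. The set holds every entry whose chromosome column reads chr4, whatever its strength. Of the entries kept by the irreproducible discovery rate (IDR), which retains peaks whose ranking repeats between replicates, chromosome 4 held 27 of 6458. These were the 27 strongest of the 240. On each arm the IDR list held as many peaks as that arm had among the strongest 6458 pooled peaks. IDR shares here therefore restate the pooled strength ranking and are not a separate measure of reproducibility. The lists of replicates 1, 2 and 3 held 292, 214 and 288 chromosome 4 peaks. Each of these 3 lists, like the pooled one, holds exactly 30000 entries, so a count on chromosome 4 is a share of a fixed total. The lists therefore reach down to weak entries: the authors' −log10 q-value of the 240 peaks ran from 0.271 to 4.16, and 29 stood at the highest value.

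All 3 samples were whole Drosophila melanogaster embryos of both sexes, aged 0 to 14 h, from 1 transgenic strain that stably expresses CG15601 with GFP fused to its C-terminus. DNA was sheared by sonication to 200 to 800 bp and precipitated with an antibody to GFP. The labels number the samples as biological replicates 1, 2 and 3 of this single group, and no sample from embryos without the tag is among them. Each list was called against the same control alignment, so a bias of that control would be shared by all lists.

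Chromosome 4 is the small dot chromosome of Drosophila melanogaster. Its gene-bearing arm is packed with remnants of transposable elements, above all INE-1, and carries marks of heterochromatin such as HP1a and methylated H3K9, yet many of its genes are active. The chromosome-specific protein POF coats these genes. In the annotation used here, chromosome 4 had 118 genes, 80 of them protein-coding, on 1.33 Mb of known sequence. Transposable elements covered 25.1% of it, against 5.75% of the other 5 major arms together, and the GC content was 35.3% against 42.2%.

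The sequences under the strongest summits show what kind of DNA the leading peaks sat on. For the 6 strongest peaks with a summit outside annotated exons, the RefSeq sequence (genome release 6, plus strand, 5′ to 3′) within 75 bp of the summit is printed, cut where an exon begins. Capitals mark matches, on either strand, to any of 8 short words: the DRE (TATCGATA), the core of Ohler motif 1 (GTCACAC), the BEAF-32 word (CGATA), the GAGA repeat (GAGAGAG), the Zelda core (CAGGTA), the CA repeat (CACACACA), poly(A) (AAAAAAAA) and a Forkhead word (TGTTTA).
Upstream of zfh2 (chr4:497829-497979): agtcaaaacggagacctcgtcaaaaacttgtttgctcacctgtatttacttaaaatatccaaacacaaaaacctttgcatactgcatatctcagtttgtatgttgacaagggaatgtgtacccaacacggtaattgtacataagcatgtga
Upstream of mir-9385 (chr4:407045-407195): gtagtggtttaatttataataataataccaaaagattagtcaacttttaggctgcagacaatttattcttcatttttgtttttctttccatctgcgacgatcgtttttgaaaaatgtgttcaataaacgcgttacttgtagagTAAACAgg
Upstream of lncRNA:CR43437 (chr4:424743-424893): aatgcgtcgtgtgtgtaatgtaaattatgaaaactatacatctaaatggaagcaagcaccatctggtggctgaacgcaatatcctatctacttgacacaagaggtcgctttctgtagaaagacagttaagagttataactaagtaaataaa
Taf3 promoter (chr4:466829-466971): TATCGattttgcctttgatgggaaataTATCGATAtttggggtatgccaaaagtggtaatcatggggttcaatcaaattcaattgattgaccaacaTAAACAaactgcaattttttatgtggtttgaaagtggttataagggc
Upstream of fuss (chr4:982886-983036): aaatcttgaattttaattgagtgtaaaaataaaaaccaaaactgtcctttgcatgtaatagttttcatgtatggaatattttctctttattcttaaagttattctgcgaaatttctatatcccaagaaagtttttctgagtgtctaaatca
Mitf intron (chr4:1199306-1199456): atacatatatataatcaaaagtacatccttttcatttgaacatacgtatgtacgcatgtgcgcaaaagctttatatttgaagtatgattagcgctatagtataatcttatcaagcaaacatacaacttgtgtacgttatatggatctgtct

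Of these 6 windows, only that of Taf3 lay at a promoter, and it held a DRE, the palindromic site of the transcription factor Dref, which contains the BEAF-32 word. The Taf3 window also held a separate BEAF-32 word and a Forkhead word, both in reverse. The window upstream of mir-9385 held a Forkhead word in reverse too, and the other 4 windows held none of the 8 words. The windows had between 25.8% and 37.1% G and C.

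The 4 strongest chromosome 4 peaks all lay away from promoters. Promoter summits were those at most 500 bp from an annotated transcription start site (TSS). The leading peak (chr4:497679-498093, dm6) was intergenic, 3906 bp upstream of zfh2, which encodes a zinc finger homeodomain transcription factor. It ranked 126 in the pooled list and 239, 72 and 197 in replicates 1, 2 and 3, with signal values, as given by the authors' peak caller, of 405, 935 and 575. Signal is not scaled between lists, so only the ranks can be set side by side. The peak was the strongest of the chromosome in each of the 3 replicate lists.

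The next peaks in strength were intergenic too, at 407120, upstream of the microRNA gene mir-9385, and at 424818, 1249 bp from the non-coding RNA gene lncRNA:CR43437. Their pooled ranks were 489 and 639. The first ranked 1314, 664 and 238 in replicates 1, 2 and 3, and the second 682, 1070 and 392. The nearest protein-coding start sites were 11515 bp away at dati, a zinc finger gene, and 19093 bp away at lgs, which encodes the Wnt pathway cofactor Legless. The fourth (pooled rank 694; ranks 635, 817 and 643) lay in the 3′ UTR of Cals, the calsyntenin gene, at a position that is also within sv, the Pax gene shaven. All 4 peaks ranked within the strongest 1314 of every replicate list.

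**Figure D1:**
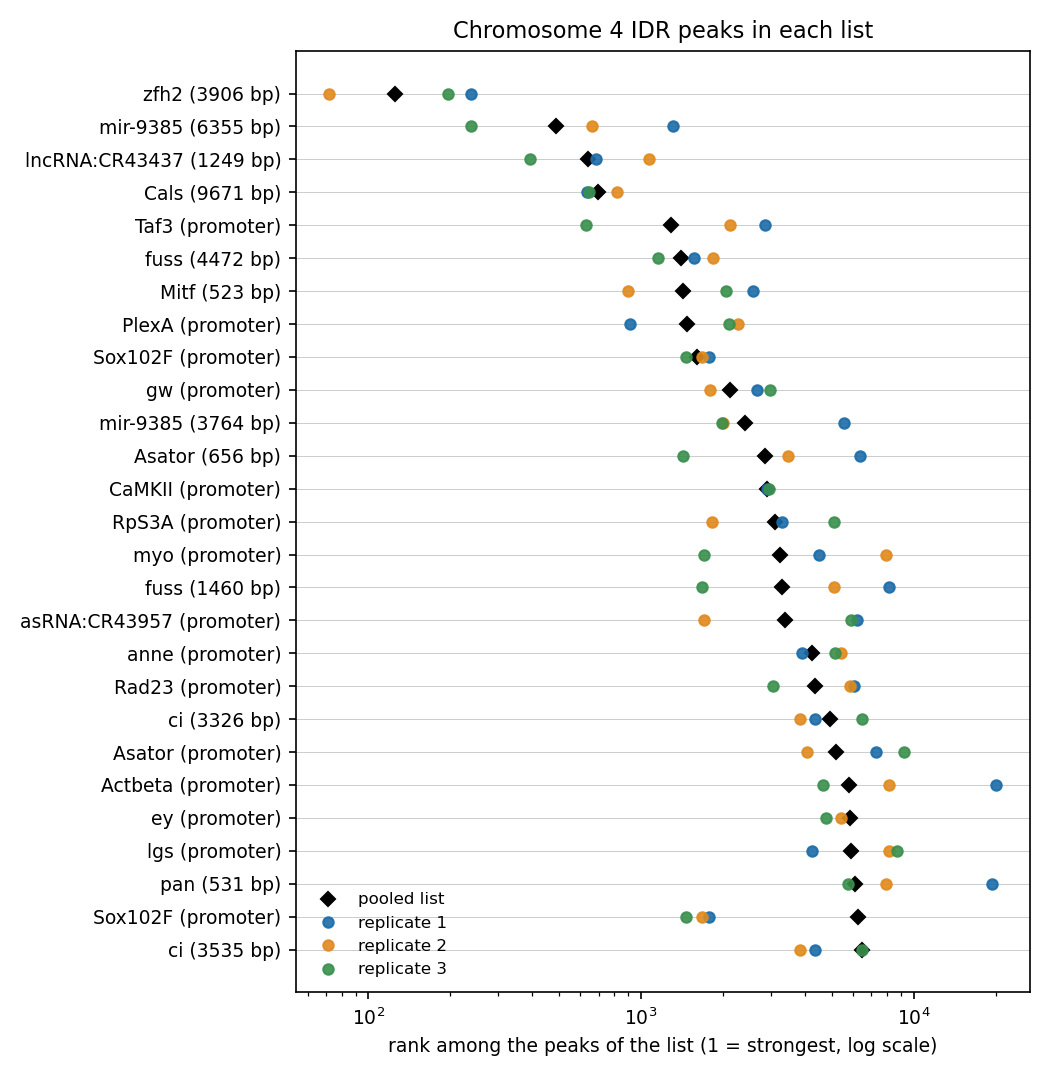
Rank of the 27 chromosome 4 IDR peaks (rows, named by the gene of the nearest TSS, with the distance for peaks outside promoters) in the pooled list and in each replicate list, on a log scale with 1 the strongest. A replicate's point is its strongest overlapping peak, and a missing point means no overlap. The peak upstream of zfh2 ranked 72 to 239 in the replicates, and those at Actbeta and pan reached only 20111 and 19334 in replicate 1.

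Promoters held 15 of the 27 IDR peaks (55.6%, exact 95% binomial interval 35.3 to 74.5), against 50.6% of the 6431 on the other arms. The strongest was at Taf3, which encodes a subunit of the general transcription factor TFIID, 68 bp upstream of the start site (pooled rank 1287; 2855, 2126 and 629 in replicates 1, 2 and 3). PlexA, the Plexin A receptor for semaphorins, followed at 1478, with replicate ranks of 911, 2278 and 2108. Sox102F, a Sox family transcription factor gene, had pooled rank 1603 and ranks of 1773, 1676 and 1458. Of these 3 genes, the replicate ranks lay closest together at Sox102F and farthest apart at Taf3.

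gw, which encodes the GW182 protein of microRNA silencing, ranked 2120, and CaMKII, the calcium/calmodulin-dependent kinase gene, 2900. No peak of replicate 2 overlapped the peak at CaMKII, whereas replicates 1 and 3 ranked it 2890 and 2954. The ribosomal protein gene RpS3A ranked 3093, with an entry only 114 bp wide. RpS3A had overlapping peaks at ranks 3302, 1829 and 5115, none of which shared 50% of both widths with it. Ligand genes of the TGF-beta family were also in this set: myo, for Myoglianin, at 3249 and Actbeta, for an Activin, at 5795.

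Further down were ci, the effector of Hedgehog signalling, sharing its peak with the antisense gene asRNA:CR43957 (pooled rank 3376), anne (4236), and Rad23, which brings ubiquitinated proteins to the proteasome (4365). Asator, a tau-tubulin kinase family gene, ranked 5171. ey, the Pax6 gene of eye development, ranked 5854 and had no overlapping peak in replicate 1. lgs ranked 5902. Sox102F held another entry, overlapping its first, at 6248. Of the 15 promoter summits, 14 (93.3%) were upstream of the nearest start site, with a median offset of −126 bp over the 15, against 78.0% on the other arms. Over all pooled promoter peaks the upstream share was 69.4% against 65.8%, and in replicates 1, 2 and 3 it was 72.2%, 64.7% and 55.3% against 67.1%, 63.3% and 65.0%, so the direction turned in replicate 3.

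The other 12 IDR peaks were mostly intergenic. Of the 27, 7 (25.9%, interval 11.1 to 46.3) were in intergenic sequence, among them 2 upstream of fuss, a gene of the Ski/Sno family (4472 and 1460 bp; pooled ranks 1409 and 3279), a further one upstream of mir-9385 and one 531 bp from pan, the TCF factor of Wingless signalling. Elsewhere intergenic sequence held 14.1%. Introns held 2 (7.41%, interval 0.91 to 24.3), at Mitf, a bHLH transcription factor gene (523 bp from a start site, pooled rank 1422), and at Asator (656 bp, rank 2858). On the other arms introns held 32.8% of IDR peaks. Beyond 5000 bp from any start site lay 2 chromosome 4 IDR peaks (7.41%) against 15.1% elsewhere. The remaining pair overlapped each other in an exon of asRNA:CR43957, 3326 and 3535 bp upstream of ci. The peak in the 3′ UTR of Cals completes the 12. Merging overlaps left 25 separate IDR regions, and 195 regions of the 240 pooled peaks.

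Over all 240 pooled peaks, 85 summits were at promoters (35.4%, interval 29.4 to 41.8), against 9149 of 29760 on the other arms (30.7%). In replicates 1, 2 and 3 the chromosome 4 share was 30.8%, 39.7% and 35.8% (35.4% ± 4.46, SD, n = 3), and the other arms gave 26.4%, 33.0% and 32.8%. Chromosome 4 was higher in 3 of 3 lists, by 4.7 ± 1.91 percentage points. The exact sign-flip permutation test over the 3 lists, two-sided, gave p = 0.25, which is the smallest that 3 lists allow, so no difference between chromosome 4 and the other arms can pass a 0.05 threshold here. It was applied to 5 differences in all, with Benjamini-Hochberg adjusted values of 0.25 for each. Sequence within 500 bp of a start site made up 10.9% of chromosome 4 and 13.6% of the other arms. Chromosome 4 was compared with arms 2L, 2R, 3L, 3R and X together; the share on arm 2R alone (36.5% in the pooled list) was above that on chromosome 4.

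**Figure D2:**
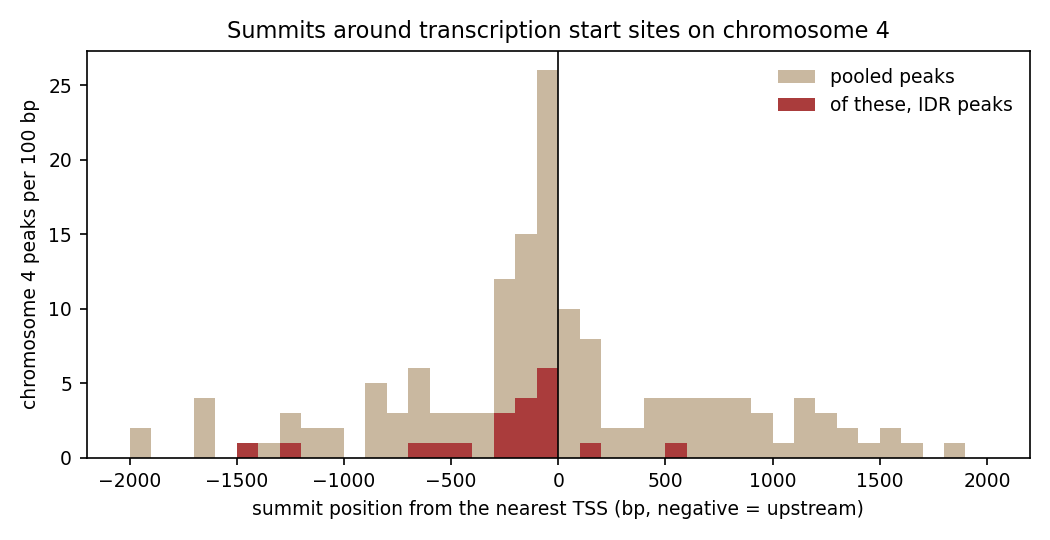
Position of chromosome 4 summits from the nearest TSS, in bp with negative values upstream, for the 151 pooled peaks within 2000 bp of a start site (bars of 100 bp); the other 89 lay farther away. The dark bars are the 20 IDR peaks in this range, and the tallest bars stand just upstream of the start site.

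Promoter share on the chromosome went with strength. Among the 80 weakest pooled peaks 12 (15.0%) were at promoters, among the 80 before them 29 (36.3%), and among chromosome ranks 28 to 80, 29 of 53 (54.7%). The 17 weaker IDR peaks had 11 (64.7%) and the 10 strongest peaks 4 (40.0%).

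Genes of chromosome 4 had a peak at a start site more often than genes elsewhere, as long as weak peaks were counted. In the pooled list, 64 of the 118 genes had one (54.2%, interval 44.8 to 63.4). Over all arms the figure was 43.5% of 18164 genes. For protein-coding genes it was 52 of 80 (65.0%), against 47.9% over all arms. In the replicate lists 66.1%, 53.4% and 66.1% of chromosome 4 genes had a promoter peak, and 40.3%, 45.6% and 46.9% of genes on the other arms. The difference of 17.6 ± 9.11 percentage points was positive in 3 of 3 lists (exact p = 0.25). In each of the 3 replicate lists, 50 genes (42.4%) had one, against 29.7% over all arms, and 22 genes had one in none. The 118 genes include short transcript entries within the microRNA genes mir-9385 and mir-954, counted beside them as annotated. Those within mir-9385 share its peak at pooled rank 17827, so this site enters the gene counts more than once.

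In the IDR list chromosome 4 genes had the lower share. An IDR peak stood at 15 of the 118 genes (12.7%, interval 7.29 to 20.1), against 22.5% of genes over all arms. With only the strongest 6458 peaks of each replicate list, the share of chromosome 4 genes differed from that elsewhere by 1.95, −7.25 and −9.42 percentage points in replicates 1, 2 and 3 (−4.91 ± 6.04, exact p = 0.5), so replicate 1 went the other way. Chromosome 4 genes were also longer, with a median of 10090 bp against 2156 bp for protein-coding genes, and had 1.57 annotated start sites each against 1.32. The part of gene length and number of start sites in the pooled difference was not tested.

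**Figure D3:**
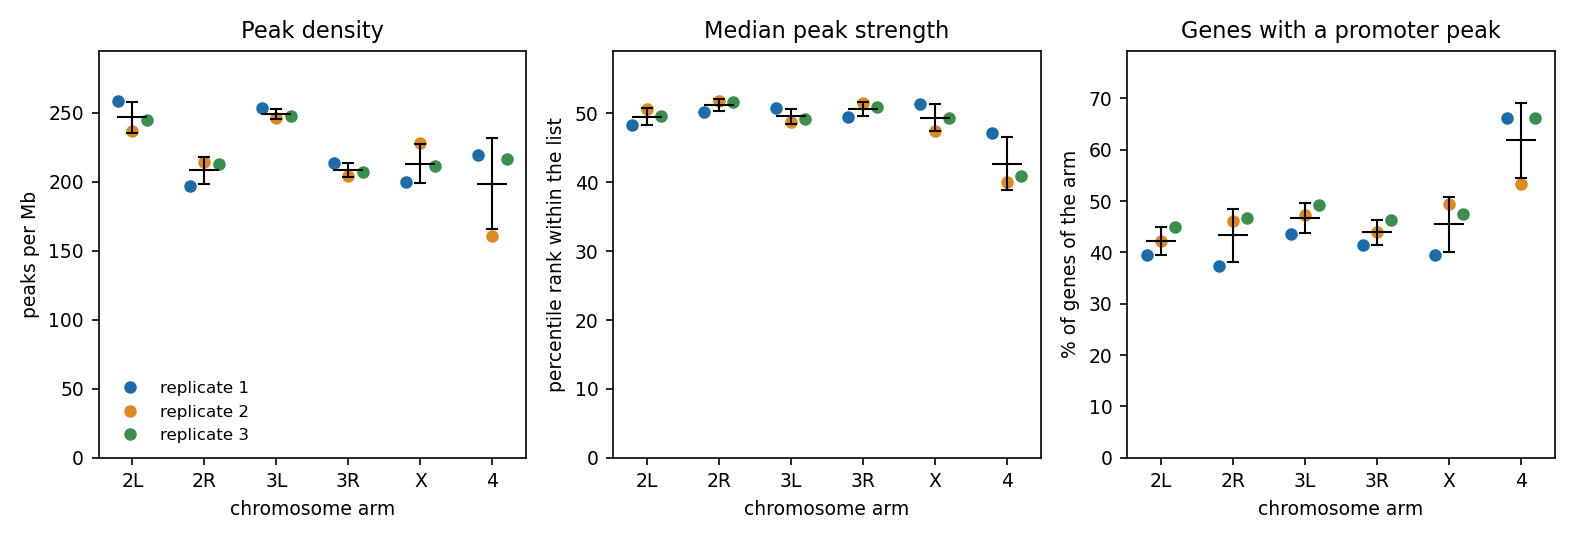
Peak density in peaks per Mb (left), median percentile rank of peak strength (middle) and share of genes with a promoter peak (right) for each arm in the 3 replicate lists. Points are replicates, and the bar with whiskers is their mean ± SD. Chromosome 4 stands lowest for median strength (40.1 to 47.1) and highest for the share of genes with a promoter peak (53.4% to 66.1%).

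Members of 6 gene lists were counted for a promoter peak in the pooled list, where 65.0% of the protein-coding genes of the chromosome had one. In replicates 1, 2 and 3 that share was 72.5%, 65.0% and 76.25%, and 52.5% of these genes had one in all 3. Differences between the gene lists were not tested. The list of 15 transcription factor genes also took in the cofactor gene lgs. Of these 15, 11 had a pooled promoter peak, with IDR peaks at ci, ey, Sox102F and lgs. Weaker ones stood at pan, zfh2, onecut, fd102C, fuss, Mitf and sv. NfI, toy, pho and dati had none, although dati had a promoter peak in all 3 replicate lists. Of 13 signalling and axon guidance genes 8 had one, led by PlexA, myo, Asator and Actbeta, while mav, RhoGAP102A, PIP4K, CaMKI and Ephrin had none. PIP4K and Ephrin nonetheless had a promoter peak in all 3 replicate lists, and replicates 1, 2 and 3 gave 11, 9 and 10 of the 13 genes. PlexB, the other plexin of the chromosome, had the strongest peak outside the IDR list, at rank 6673.

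A list drawn up for translation, respiration and protein turnover, which also took in genes of other functions, had one in 9 of 11 cases, with RpS3A, Rad23 and gw in the IDR list. Weaker peaks stood at Gyf, 4E-T, ND-49, a subunit of respiratory complex I, Tdg, a thymine DNA glycosylase of DNA repair, and the Arf family GTPase genes Arl4 and Arf4. The exceptions were eIF4G1, a translation initiation factor gene, and ATPsynbeta, a subunit of ATP synthase. ATPsynbeta nonetheless had a peak in all 3 replicate lists. So did 10 of the 11 genes, against 52.5% of the protein-coding genes of the chromosome. Synapse and membrane transport genes had one in 2 of 10 cases, Cadps (rank 10405) and Ank (20136), and none had an IDR peak. IDR promoter peaks stood at 14 of the 80 protein-coding genes of the chromosome (17.5%). unc-13, Syt7, mGluR, Gat, PMCA, Kif3C, Ekar and Zip102B had no pooled peak at a start site. The list is not complete: CaMKII, described above with its IDR peak, and Cals, with a pooled promoter peak at rank 19639, were not in it.

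The counts for the synapse group were 7, 4 and 3 of 10 in replicates 1, 2 and 3, and those of the transcription factor group 8, 11 and 13 of 15. Those of the mixed group with RpS3A and gw were 11, 10 and 10 of 11. Over all protein-coding genes of the chromosome the shares were 72.5%, 65.0% and 76.25%. A short list of chromatin and transcription machinery genes had 3 members on the chromosome and is not complete: Pur-alpha had a pooled promoter peak, Hcf and MED26 had none, and Taf3, described above with its IDR peak, was not in the list. All 3 genes of muscle and lipid transport had one: bt, for the muscle protein Projectin, Zyx, for Zyxin, and apolpp, for the apolipophorin precursor.

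The gene bodies with most pooled peaks were apolpp, with 13 summits over 16305 bp, and its neighbour Zyx, with 9 over 7637 bp, which overlap on opposite strands so that some summits count for both. Asator and pan held 9 each, and Sox102F and asRNA:CR43957 8 each, the latter over only 6628 bp. Of the 118 genes, 49 had no summit at a start site or within the gene, and 5 had summits within the gene only.

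Chromosome 4 peaks ranked lower than those of the other arms in the pooled list and in each replicate list. To compare strength within a list, each peak was given its percentile rank, 100 being the strongest. The median over chromosome 4 was 35.8 in the pooled list, and the medians of the other 5 arms lay between 48.1 and 52.6. In replicates 1, 2 and 3 it was 47.1, 40.1 and 40.9 (42.7 ± 3.86, SD, n = 3), against 50.1 ± 0.0366 for the other arms together. The difference of −7.37 ± 3.90 points was negative in 3 of 3 lists (exact p = 0.25), at −2.90, −10.03 and −9.19 in replicates 1, 2 and 3. Without the summits in transposable elements the pooled median was 38.3. Among promoter peaks alone it was −9.37 (exact p = 0.5), since replicate 1 gave 68.2 for chromosome 4 against 67.3 elsewhere.

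Only 11.3% of the chromosome 4 pooled peaks were in the IDR list (interval 7.55 to 15.9), against 21.5% of all pooled peaks. This share restates the lower pooled ranks, since IDR entries were the strongest pooled peaks of the chromosome. Chromosome 4 made up 0.4% of the 1000 strongest pooled peaks and 1.04% of those ranked 15001 to 30000. In replicates 1, 2 and 3 it made up 0.4%, 0.4% and 0.5% of the first band, and 1.02%, 0.86% and 1.15% of the last. The shortage of strong peaks held for promoter peaks, of which 27.8%, 17.7% and 16.5% were among the strongest 6458 against 36.7%, 33.6% and 36.3% elsewhere. It also held for other peaks, with 6.44%, 7.75% and 5.95% against 16.2%, 15.7% and 14.5%. Chromosome 4 holds 0.996% of the sequence and 0.65% of the genes of the 6 arms.

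Peak density on chromosome 4 was 219, 161 and 216 per Mb in replicates 1, 2 and 3, against 224 to 225 on the other arms together. Single arms varied more. In replicate 1, 2R, 3R and X had 197, 214 and 200 per Mb, below chromosome 4, and 2L and 3L had 259 and 254. In replicate 3 these values were 213, 207 and 212, also below chromosome 4, and 245 and 248. In replicate 2 every other arm was above chromosome 4. The log2 ratio to the other arms together was −0.19 ± 0.26 (exact p = 0.25), and without replicate 2 it was −0.04. Outside annotated transposable elements, an alternative added with the values known, it was −0.02 (exact p = 1). The density of the strongest 6458 peaks was 28.5, 18.8 and 21.0 per Mb, against 48.5 to 48.6 elsewhere (mean log2 ratio −1.12, exact p = 0.25). Per annotated gene the order was the other way, with 2.48, 1.81 and 2.44 peaks against 1.65 (log2 ratio 0.43 ± 0.26, exact p = 0.25), since chromosome 4 had 88.7 genes per Mb and the other arms 136. For the strongest 6458 peaks this ratio was −0.49. Single arms differed: in replicate 2, 3L had 1.95 and X 1.90 peaks per gene, above chromosome 4. In the pooled list they had 1.97 and 1.94 against 2.03. In replicates 1 and 3 no other arm had more peaks per gene than chromosome 4.

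Summits on chromosome 4 lay in transposable elements 29 times (12.1%), against 0.39% on the other arms. The share was 12.3%, 10.3% and 10.8% in replicates 1, 2 and 3, against 0.309% to 0.599%. Set against the sequence that the elements cover, the share of summits was 0.482 times as large on chromosome 4 and 0.0679 times elsewhere. INE-1 was under 16 of the 29 summits, the element 1360 under 5 and the element S under 4, with 344, 60 and 6 annotated copies on the chromosome. Of the S summits, those at 420079 and 420301 belong to overlapping peaks. None of these peaks was in the IDR list, against 12 of 116 such peaks on the other arms. The best pooled rank was 8623, and 1 lay at a promoter. Of the 29, 4 (13.8%) were matched in all 3 replicate lists, against 66 of the 211 others (31.3%). Strength was not matched in this comparison. None of the 29 was among chromosome ranks 1 to 27, while 15 lay in ranks 81 to 160 and 10 in ranks 161 to 240. In these last 2 bands 18.8% and 5.0% of all chromosome 4 peaks were matched in all 3. How uniquely reads align to such repeats was not tested.

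**Figure D4:**
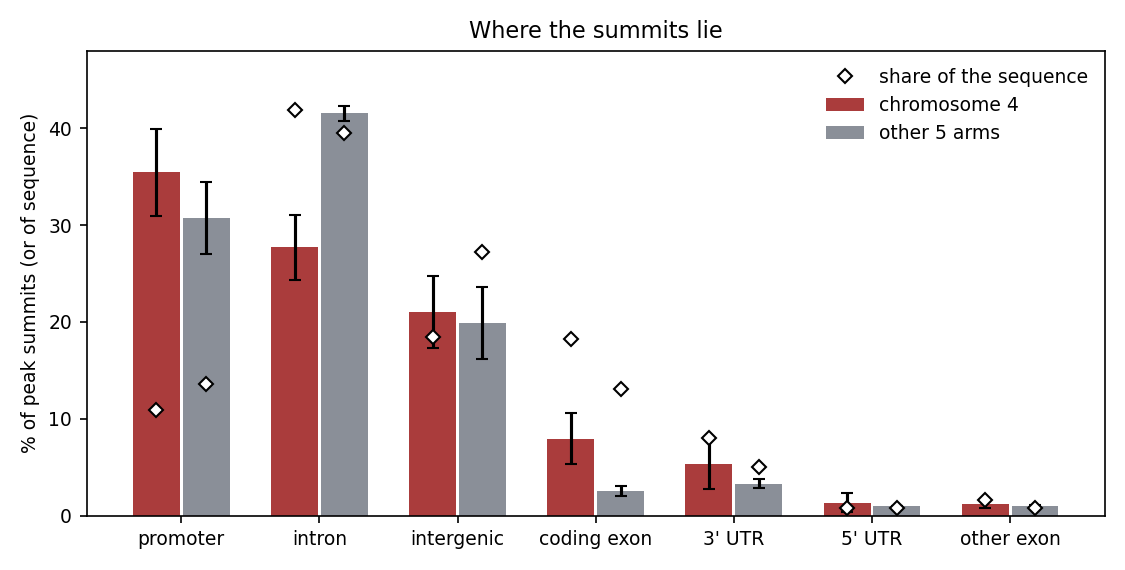
Share of summits by annotation class on chromosome 4 and on the other 5 arms, as the mean ± SD over the 3 replicate lists in percent, with the share of sequence in the same class as diamonds. Introns hold 27.7% of chromosome 4 summits against 41.5% elsewhere, and coding exons 7.96% against 2.52%.

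Introns held a smaller share of summits on chromosome 4 than elsewhere, and coding exons a larger one, in each replicate list; these shares were not tested. The intron share was 29.5%, 23.8% and 29.9% in replicates 1, 2 and 3 (27.7% ± 3.37) against 41.5% ± 0.743 on the other arms, although introns made up 41.9% of chromosome 4 sequence and 39.5% elsewhere. The coding exon share was 11.0%, 7.01% and 5.90% (7.96% ± 2.66) against 2.52% ± 0.515, with 18.2% and 13.1% of the sequence. No coding exon peak of chromosome 4 was in the IDR list, but on the other arms they were also only 13 of 6431 IDR peaks (0.20%). Intergenic sequence held 21.0% ± 3.70 against 19.9% ± 3.70 and did not differ beyond the spread of the replicates.

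Peaks were spread over the arm from 41942 to 1272412, with none from 1300001 to the end at 1348131, where no gene is annotated and transposable elements cover 95.4% of the sequence. In steps of 100 kb the interval from 400001 to 500000 held most, with 37 pooled and 8 IDR peaks and 39, 43 and 39 in the replicates. It contains the sites upstream of mir-9385, lncRNA:CR43437 and zfh2, the promoters of lgs and Taf3, and Asator. Replicates 1, 2 and 3 thus placed nearly equal numbers there. The first 100 kb, with ci, RpS3A, PlexB and the start of pan, held 32 pooled and 5 IDR peaks. The interval from 1000001 to 1100000, with PlexA, CaMKII, apolpp and Actbeta, held 28 and 3. The longest gap between neighbouring pooled summits ran from 867187 to 958412 (91225 bp), and the median gap was 1193 bp. The replicate lists did place peaks in this stretch, such as at the start site of mGluR in replicates 1 and 2 and of asRNA:CR44029 in replicates 1 and 3.

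Replicates repeated the weak chromosome 4 peaks less often than the strong ones. Matching required an overlap of at least 50% of both peaks. Of the 240 pooled peaks, 70 (29.2%, interval 23.5 to 35.4) were matched in all 3 replicate lists, 72 in 2, 90 in 1 and 8 in none, and over all arms 36.7% were matched in all 3. Of chromosome ranks 28 to 80, 58.5% were matched in all 3, of the next 80 peaks 18.8% and of the 80 weakest 5.0%. Of the 27 IDR peaks 20 (74.1%, interval 53.7 to 88.9) were matched in all 3, against 68.8% on the other arms. Between single replicates, 34.3% to 47.2% of chromosome 4 peaks were matched, depending on the pair and the list counted, against 48.1% to 58.7% on the other arms. For pooled peaks matched in both, Spearman's rho between ranks was 0.591 in replicates 1 and 2 (90 peaks), 0.485 in 1 and 3 (94 peaks) and 0.668 in 2 and 3 (98 peaks). The pooled list holds the reads of all 3 replicates, so these matches are not independent of it. Among the pooled peaks matched in both of any 2 replicates, 31.4% to 36.4% of the chromosome's genes had a promoter peak and the median strength was 63.1 to 65.5.

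The DRE stood within 75 bp of 12 of the 240 summits (5.00%), against 1.73% of the 29760 windows of the same length on the other arms. In replicates 1, 2 and 3 the share was 2.40%, 4.67% and 2.43% (3.17% ± 1.30) against 1.59% ± 0.359. Of the 12, 6 were at promoters, those of Taf3, PlexA, Actbeta, Eph, Cadps and Crk, and 4 were in transposable elements, 3 of them INE-1. Outside transposable elements the share was 3.79%. At promoter peaks the pooled share was 7.06% against 4.88%, but the replicates gave 3.33%, 4.71% and 4.85% against 3.58%, 4.57% and 5.06%. At other peaks the pooled share was 3.87% against 0.33%, and the replicates gave 1.98%, 4.65% and 1.08% against 0.306% to 0.320%, from 4, 6 and 2 windows on chromosome 4. The CA repeat was under 1.25% of summits against 3.90%, and the GAGA repeat under 0.833% against 3.10%, with replicate means of 0.926% ± 0.535 against 3.92% ± 0.372 and 1.00% ± 0.342 against 2.85% ± 0.479. The Forkhead word (20.0% against 19.3%) and poly(A) (10.8% against 11.8%) were close to the other arms in the pooled list. In replicates 1, 2 and 3 the Forkhead word stood at 13.7%, 20.1% and 21.5% against 18.3%, 18.9% and 18.6%, so the direction turned. In the IDR list it was 11.1% against 23.4%, from 3 windows on chromosome 4. Poly(A) was lower in replicate 1 (11.0% against 11.8%) and higher in replicates 2 and 3 (12.6% against 11.0%, and 11.5% against 10.8%). The Zelda core stood at 1.67% in the pooled list and at 5.48%, 1.87% and 7.29% in the replicates, against 2.91% in the pooled list and 2.92%, 3.03% and 2.80% in the replicates elsewhere. Chromosome 4 was thus lower in the pooled list and replicate 2 and higher in replicates 1 and 3. The BEAF-32 word was under 24.2% against 19.7%, and the core of Ohler motif 1 under 1.67% against 2.21%, but both differences turned in replicate 3 (20.1% against 20.5%, and 2.43% against 2.38%). These shares are descriptions of letters in the windows. Base composition differs between the arms and was not matched.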

How the data were processed

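ChIP-seq peak lists of 3 replicates, a pooled list and an IDR list were used. Per the README listings deposited with the samples, the authors called peaks on dm6 for each replicate and for the pooled replicates against the same control alignment, and derived the IDR list from these. Names of the peak caller and aligner were not given in the sources used here. The deposited columns used were the signal value, the −log10 q-value and the summit. The signal tracks were not used here, and read depth is unknown, so intervals cover counting error over peaks only.

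Genes came from Ensembl release 115 (dm6 coordinates, without transposable elements, which were read separately), and bases were read from RefSeq's genome release 6. Symbols in the gene lists were matched through RefSeq synonyms. Each summit took the first class that applied: promoter, then UTR (5′ before 3′), coding exon, any other exon, intron and intergenic. Density is per Mb of known bases. Chromosome 4 was compared with arms 2L, 2R, 3L, 3R and X together within each replicate list, by an exact sign-flip permutation test over the 3 lists. Peaks of a list are not independent, so they were not tested against each other. All chromosome 4 genes with an IDR promoter peak, the genes of the 10 strongest peaks and the nearest genes of the 5 strongest peaks outside promoters are named; further names are members of the gene lists or were picked with their values known. The chromosome, gene lists and words were chosen with earlier results of these data known. The functions for the distance to a TSS, for genes with a peak at a TSS and for peak overlap were checked on simulated data. Python 3.11.15, pandas 2.3.3, numpy 2.4.6 and scipy 1.17.1 were used.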

Additional observations from a re-analysis of the deposited data

How the results depend on the processing

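Of 68 recomputed values, 43 kept their direction or stayed within the spread of the replicates. Of the 5 differences between chromosome 4 and the other arms, 37 of 39 alternatives kept the sign, though a test with a smallest p of 0.25 says nothing about stability. Both reversals came with the strongest 6458 peaks of each replicate list: the log2 ratio of peaks per gene became −0.494 and the gene share difference −4.91 percentage points. There the strength difference was −0.173 and the promoter share difference 11.8 points. The pooled promoter share was 28.8% with 250 bp and 50.4% with 1000 bp around a TSS, and 55.6% in the IDR list. The pooled gene share was 64.4% with 1000 bp, 65.0% for protein-coding genes and 12.7% in the IDR list. Median strength was 54.7 for promoter peaks only. Peaks found in all 3 replicates made up 74.1% of the IDR list, 44.2% with any overlap, 11.3% with an overlap of 80% of both, and 6.25% when only the strongest 6458 of each replicate list were admitted. Keeping pooled peaks matched in the other 2 replicates (each replicate left out in turn) gave promoter shares of 44.7% to 49.0%, gene shares of 31.4% to 36.4%, median strengths of 63.1 to 65.5 and 37.5% to 40.8% of peaks found. Each of these filters removes weak peaks by construction. On 27 IDR peaks, shares have wide intervals.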
